A study of Homo sapiens with 4 samples.

Results

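Semaphorins, plexins, neuropilins, Eph receptors, ephrins, SLIT ligands, ROBO receptors, netrins and UNC5 receptors steer migrating cells and growing axons, and their mRNAs were measured in RNA recovered with the protein P5CS. The families were chosen with earlier results of these data known, and their members were then taken by symbol alone. This gave 63 of the 21372 genes in the deposited count table. They were 19 semaphorins, 9 plexins, 2 neuropilins, 11 Eph receptors, 8 ephrins, 3 SLIT and 4 ROBO genes, 4 netrins and 3 UNC5 receptors. The material was NCI-H1299, an established human cell line that the labels call lung adenocarcinoma, with no transgene, mutation or treatment named for either group. RIP-seq recovers a protein with an antibody and sequences the RNA that comes down with it, and the sample titles name 2 P5CS immunoprecipitates (P5CS IP) and 2 inputs of the starting RNA. P5CS is the product of ALDH18A1 and carries out an early step of proline synthesis in mitochondria. The question is which RNAs are over-represented in the P5CS IP. No IgG or mock precipitate was analysed here, so "higher" means a larger share of the P5CS IP RNA than of the input RNA, and RNA that any precipitate would hold cannot be told apart from RNA bound to P5CS. Whether the libraries within a group stem from separate cultures is not in the labels. The p-values therefore reflect only how far these libraries differ, which may be technical.

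These families work as ligand and receptor pairs at the cell surface. Class 3 semaphorins are secreted and act through a neuropilin and plexin complex, whereas the membrane-bound classes bind plexins directly. Ephrins are tethered ligands: ephrin-A proteins hold a lipid anchor, ephrin-B proteins span the membrane, and both bind Eph receptor tyrosine kinases on a neighbouring cell. SLIT proteins bind ROBO receptors and netrins bind DCC, neogenin or UNC5 receptors. The receptors turn over the actin cytoskeleton through small GTPases. Outside the nervous system the same genes act in vessel growth, epithelial contact and tumour cell invasion.

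The libraries held 34730866 and 31489455 counts in the P5CS IP and 40911717 and 46339235 counts in the input. Between 85.8 and 86.4% of the counts from 1 to 30 were even, which fits a table in which each pair of mates added 2 counts. RN7SL1, the noncoding RNA that scaffolds protein targeting to the endoplasmic reticulum, made up 1.54 to 1.85% of P5CS IP counts and 18.4 to 20.5% of input counts, which lowers the share of all other genes in the input. Levels within a gene are therefore given as depth-scaled counts (CPM) over library sizes scaled by the trimmed mean of M-values (TMM), under which the median log2 fold change of all tested genes was -0.01. The keratins KRT8 and KRT18 stood at 59.2 and 256.4 FPKM in the input and the mesenchymal VIM at 1844 FPKM. The keratins KRT7 and KRT19 had only 0.63 and 0.65 FPKM in the input. The lung regulator NKX2-1 had 8 and 0 input counts and the epithelial EPCAM 8 and 6. The 12 measured markers of blood, fibroblast, endothelial and neural cells summed to 14.0 and 19.5 CPM in the P5CS IP and to 15.7 and 15.5 CPM in the input, and SYT1 was their only member above 1 FPKM in the input. The 5 measured epithelial markers summed to 453 and 449 CPM in the P5CS IP and to 807 and 840 CPM in the input. Of these, KRT19 had more counts in the P5CS IP (70 and 82) than in the input (30 and 50), and the others had fewer. A part of these differences in the results was not tested.

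The guidance mRNAs were over-represented in the P5CS IP. Together they took 0.576% ± 0.00239 of P5CS IP counts against 0.229% ± 0.00242 of input counts (SD, n = 2 each), shares of total counts that the larger RN7SL1 share of the input also moves. Of the 63 genes, 60 passed the filter on low counts, and 34 of these (56.7%) were higher in the P5CS IP, 0 were lower, while 26 missed the threshold. EPHB6 and NTN3, which are among the 34, passed that filter through the P5CS IP libraries alone and had to be higher there to be tested. Of the 49 genes with both inputs past the filter minimum, 32 were higher. A call required an adjusted p under 0.05, from edgeR with adjustment over all genes. Over all 17304 tested genes, 25.4% (4400) were higher and 25.6% (4432) were lower, and scaling by total counts alone turned this split into 5604 higher and 3223 lower. The median log2 fold change of the tested guidance genes was 0.97. Both P5CS IP values lay above both inputs in CPM in 46 of the 60, against 37.7% of all tested genes. The 46 include all 34 called genes and SLIT1. A call with a difference of at least 2-fold was made in 21 of the 60 (35.0%), EPHB6 and NTN3 among them, against 15% of all tested genes. DESeq2 also called 34 higher and 0 lower, and at an unadjusted p under 0.05 edgeR gave 35 higher and 0 lower.

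**Figure D1:**
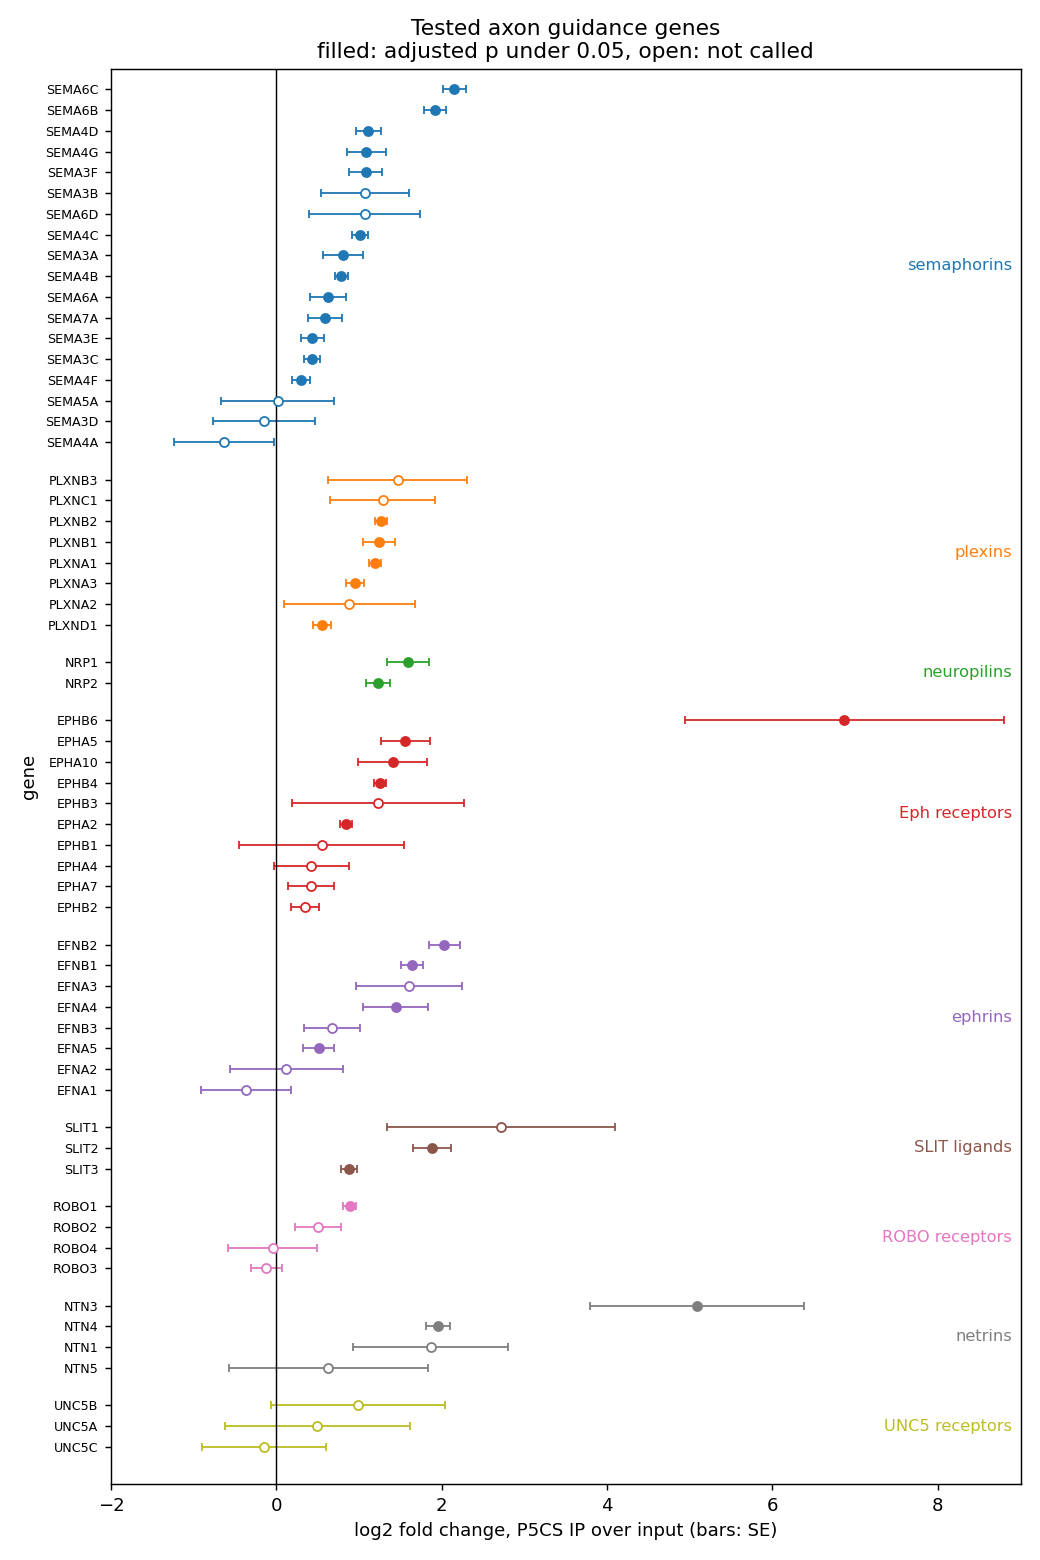
Log2 fold change of P5CS IP over input (x axis, bars are SE) for the 60 tested guidance genes (y axis), grouped by family; filled points passed adjusted p under 0.05 and open points did not. All 34 filled points lie right of 0, and the widest bars belong to EPHB6 and SLIT1, which had 0 and 6 counts over both inputs.

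How many counts a gene had went with whether it was called. All 17 guidance genes with a mean over 1000 counts per library were higher, against 44.7% of all tested genes at that depth. Between 100 and 1000 counts 15 of 20 were higher, against 23.8% of all tested genes. Under 100 counts 2 of 23 were higher (9.35% of all tested genes), namely EPHB6 and NTN3. The genes that did not pass had a median of 32.3 input counts and a median SE of 0.66 on the log2 scale, while the called ones had 599.8 counts and 0.15. The 3 genes EPHB6, NTN3 and SLIT1 passed the count filter through the P5CS IP libraries alone, so they had to be higher there to be tested at all, and nothing is read from the count of 2.

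Per length, the input levels of these genes spanned a wide range. On the scale of the deposited FPKM (fragments per kilobase of gene model, scaled to library size), 25 of the 63 genes had a mean of at least 1 in the input and 38 were below it. FPKM use total counts, so the larger RN7SL1 share of the input also moves a P5CS IP value against its input. EPHA2 was the most abundant, at 273.4 ± 3.91 FPKM in the P5CS IP and 127.0 ± 1.72 FPKM in the input (SD, n = 2 each). PLXNB2 followed with 188.9 ± 3.10 FPKM in the P5CS IP and 65.4 ± 0.911 FPKM in the input, then PLXNA1 with 148.2 ± 3.11 FPKM in the P5CS IP and 53.9 ± 0.900 FPKM in the input, and EPHB4 with 100.3 ± 2.40 FPKM in the P5CS IP and 35.0 ± 0.291 FPKM in the input. These 4 receptors made up 71.2% of all guidance counts in each P5CS IP library and 68.5 and 68.9% in the inputs, so the summed share of the set is mostly theirs.

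**Figure D2:**
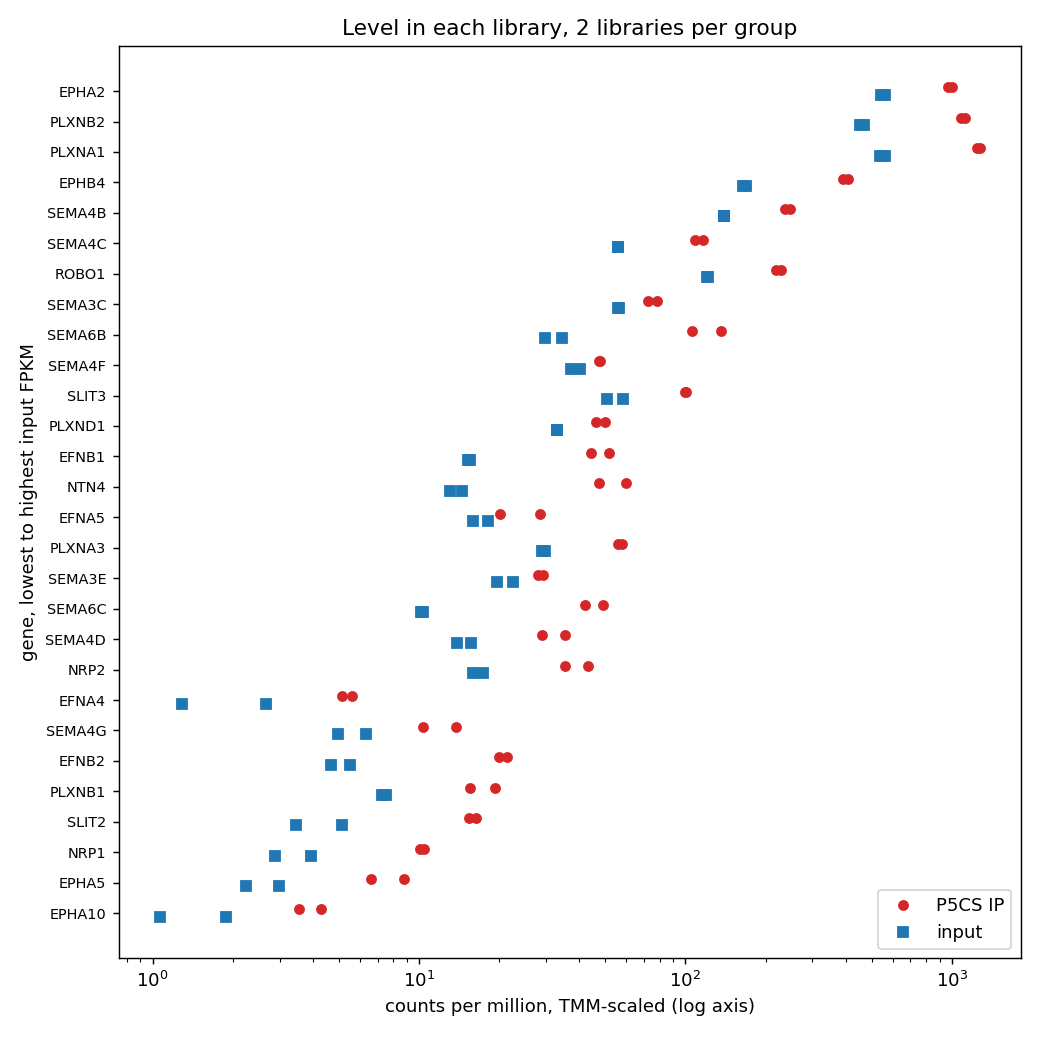
TMM-scaled counts (CPM, x axis, log scale) in each of the 2 P5CS IP libraries (circles) and 2 input libraries (squares) for called guidance genes (y axis, ordered by input FPKM). In every gene shown both circles lie right of both squares, with PLXNA1 at 1272 and 1247 CPM in the P5CS IP against 540 and 562 CPM in the input. That order held in 46 of the 60 tested guidance genes and in 37.7% of all tested genes. The genes shown had already been called higher, so nothing is read from the order in them.

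Among the semaphorins, 13 of 18 tested genes were higher and 5 did not pass. Their median log2 fold change was 0.80. The transmembrane class 6 had the highest differences. SEMA6C (chromosome 1, 151131685 to 151146631, GRCh38) stood at 41.8 and 49.2 CPM in the P5CS IP, against 10.2 and 10.3 CPM in the input. Its log2 fold change was 2.15 (SE 0.142, adjusted p = 4.43e-07, edgeR), a 4.44-fold difference with both P5CS IP libraries far above both inputs. SEMA6B (chromosome 19, 4542593 to 4559684) had 106.0 and 135.8 CPM in the P5CS IP and 29.7 and 34.4 CPM in the input, a log2 fold change of 1.91 (SE 0.133). SEMA6A was called at 0.63 (SE 0.220), and SEMA6D, with 18 to 58 counts per library, had 1.07 (SE 0.671) and did not pass.

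Class 4 semaphorins, which are also membrane proteins, were called in 5 of 6 genes. SEMA4B, the semaphorin with the highest input FPKM, stood at 247.1 and 235.6 CPM in the P5CS IP against 140.0 and 140.2 CPM in the input, a log2 fold change of 0.78 (SE 0.0791). SEMA4C had 108.9 and 116.1 CPM in the P5CS IP and 55.9 and 55.8 CPM in the input (log2 fold change 1.01, SE 0.0918). SEMA4D, a plexin-B ligand, had 35.2 and 28.9 CPM in the P5CS IP and 15.7 and 13.9 CPM in the input (1.11, SE 0.155). The libraries of each group stayed apart in all 3 genes. SEMA4G had 10.3 and 13.7 CPM in the P5CS IP and 6.33 and 4.97 CPM in the input (1.09, SE 0.236).

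SEMA4F had the smallest called difference of the set, 47.7 and 47.2 CPM in the P5CS IP against 37.2 and 40.1 CPM in the input. Its log2 fold change was 0.30 (SE 0.108, adjusted p = 0.040, edgeR quasi-likelihood test). The call of SEMA4F ended without any 1 of the 4 libraries (0.24 to 0.35, adjusted p = 0.0518 to 0.227, same edgeR test) and without a count filter (0.30). SEMA4A had 0.967 and 1.28 CPM in the P5CS IP and 0.958 and 2.53 CPM in the input. The P5CS IP values of SEMA4A lie between its inputs, and its log2 fold change of -0.64 (SE 0.602) did not pass.

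The secreted class 3 semaphorins were called in 4 of 6 genes, with a median log2 fold change of 0.62. SEMA3F, a ligand of neuropilin-2, had 14.6 and 13.4 CPM in the P5CS IP and 7.18 and 6.02 CPM in the input (1.08, SE 0.200). SEMA3C, the most abundant class 3 gene, had 78.1 and 72.6 CPM in the P5CS IP against 56.4 and 55.6 CPM in the input (0.43, SE 0.0958). SEMA3E, the ligand of plexin-D1, had 29.2 and 27.9 CPM in the P5CS IP and 22.6 and 19.6 CPM in the input (0.43, SE 0.139). These differences are small, but no P5CS IP library of SEMA3C or SEMA3E fell to an input level. SEMA3A, the classical growth cone repellent, was called at 0.81 (SE 0.237), SEMA3B had 1.07 (SE 0.528) and SEMA3D -0.15 (SE 0.618), neither of the last pair passing. Without the first P5CS IP library the calls of SEMA3A (0.52, adjusted p = 0.162, edgeR) and SEMA3E (0.41, 0.0695) ended, and SEMA3E was also lost without the second input (0.34, 0.162). SEMA7A, the lipid-anchored class 7 member, was called at 0.59 (SE 0.201), which was lost on leaving out the second P5CS IP (0.55, adjusted p = 0.104, edgeR) or the first input (0.46, 0.147). The call of SEMA6A ended without the same libraries (0.49 and 0.46, adjusted p = 0.167 and 0.157, edgeR).

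Among the receptors of semaphorins, 5 of 8 tested plexins and both neuropilins were higher, with medians of 1.22 and 1.41 on the log2 scale. PLXNB2 (chromosome 22, 50274979 to 50307646) stood at 1087 and 1124 CPM in the P5CS IP, against 451.7 and 468.3 CPM in the input. Its log2 fold change of 1.26 (SE 0.0706, adjusted p = 1.27e-07, edgeR) had the lowest adjusted p of the set. PLXNA1 (chromosome 3, 126983115 to 127037389), the signalling partner of neuropilin-1, had 1272 and 1247 CPM in the P5CS IP and 539.7 and 561.7 CPM in the input (1.19, SE 0.0695). In both genes the replicates of a group differed by far less than the groups did.

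PLXNB1, the receptor of SEMA4D, had 15.6 and 19.3 CPM in the P5CS IP and 7.24 and 7.496 CPM in the input (1.24, SE 0.189). PLXNA3 had 57.9 and 55.8 CPM in the P5CS IP and 29.0 and 29.7 CPM in the input (0.95, SE 0.107). PLXND1, a plexin of vessel patterning, had 46.2 and 50.1 CPM in the P5CS IP and 32.9 and 32.8 CPM in the input (0.55, SE 0.111), the lowest called plexin value. NRP1, a co-receptor of class 3 semaphorins and of vascular endothelial growth factor, had 10.5 and 10.1 CPM in the P5CS IP and 2.87 and 3.91 CPM in the input (1.59, SE 0.252). NRP2 had 35.4 and 43.0 CPM in the P5CS IP and 17.4 and 16.0 CPM in the input (1.23, SE 0.143). None of these 5 genes, all called higher, had overlapping groups. Both P5CS IP values lay above both inputs in 46 of the 60 tested guidance genes and in 37.7% of all tested genes. The plexins that did not pass, PLXNB3, PLXNC1 and PLXNA2, had log2 fold changes of 0.88 to 1.47 from 8 to 82 counts per library. PLXNA4 was not tested and had 8 and 5 counts in the P5CS IP and 0 in both inputs.

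Of 10 tested Eph receptors, 5 were higher and 5 did not pass, with all 10 log2 fold changes above 0. Both counts include EPHB6, which passed the count filter through the P5CS IP libraries alone. EPHA2 (chromosome 1, 16124337 to 16156069), a receptor often abundant in epithelial tumours, stood at 969.8 and 999.9 CPM in the P5CS IP, against 540.4 and 559.9 CPM in the input. Its log2 fold change was 0.84 (SE 0.0699, adjusted p = 2.48e-06, edgeR quasi-likelihood test), a 1.79-fold difference. EPHB4 (chromosome 7, 100802565 to 100827523), the receptor of ephrin-B2 in vein development, had 389.8 and 407.4 CPM in the P5CS IP and 164.7 and 169.4 CPM in the input (1.25, SE 0.0768). EPHA2 and EPHB4 thus had P5CS IP values well clear of their inputs in every library.

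EPHA5, a receptor of ephrin-A ligands best known from brain, had 8.78 and 6.58 CPM in the P5CS IP and 2.98 and 2.24 CPM in the input (1.56, SE 0.296). EPHA10, a receptor that lacks kinase activity, had 4.29 and 3.55 CPM in the P5CS IP and 1.06 and 1.89 CPM in the input (1.41, SE 0.418). The EPHA10 call ended without the first P5CS IP (1.27, adjusted p = 0.0516, edgeR) or the first input library (1.05, 0.0695). EPHB2, with 472 to 593 counts per library, had a log2 fold change of 0.35 (SE 0.169) and did not pass. EPHA4 and EPHA7 had 0.42 each, EPHB1 0.55 and EPHB3 1.23, none passing.

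EPHB6, the kinase-dead member of the EPHB group, had 18 and 10 counts in the P5CS IP and 0 counts in both inputs. Set against a floor of 6 counts over the 2 inputs (3 read pairs, taking both mates as counted), its observed P5CS IP counts were 5.11-fold higher. This figure allows for counting error in the input only and gives none to the P5CS IP counts. EPHB6 passed the count filter through the P5CS IP libraries alone, so it had to be higher there to be tested. Its adjusted p was 0.0135 (edgeR quasi-likelihood test) and the call ended without a count filter and without the second P5CS IP, the first input or the second input (adjusted p = 0.0516, 0.0751, 0.113 and 0.114, edgeR). EPHA8 was not tested, with 2 and 14 counts in the P5CS IP and 0 in both inputs. Nearly all its counts came from 1 library, so no fold is given.

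Of the 3 ephrin-B ligands, 2 were higher. EFNB2 (chromosome 13, 106489745 to 106535662), the ligand of EPHB4, stood at 21.4 and 20.04 CPM in the P5CS IP, against 5.51 and 4.66 CPM in the input. Its log2 fold change was 2.03 (SE 0.187, adjusted p = 5.43e-06, edgeR quasi-likelihood test). EFNB1 (chromosome X, 68829021 to 68842160) had 44.4 and 51.7 CPM in the P5CS IP and 15.5 and 15.3 CPM in the input (1.64, SE 0.132). EFNB3 had 0.67 (SE 0.344) and did not pass.

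Among the lipid-anchored ephrins, 2 of 5 were called. EFNA4 had 5.12 and 5.59 CPM in the P5CS IP and 2.66 and 1.29 CPM in the input (1.44, SE 0.390). EFNA5 had 28.4 and 20.1 CPM in the P5CS IP and 18.2 and 15.9 CPM in the input (0.51, SE 0.184). The second P5CS IP of EFNA5 lay close to the first input, and the call ended without the first P5CS IP (0.24, adjusted p = 0.361, edgeR) or the second input (0.42, 0.140). EFNA3 had 1.46 and 1.81 CPM in the P5CS IP and 0.692 and 0.382 CPM in the input (1.60, SE 0.645) and missed the threshold (adjusted p = 0.0596, edgeR). EFNA1 had -0.37 (SE 0.546) and EFNA2 0.12 (SE 0.686).

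In the SLIT and ROBO pair of families, 2 of 3 ligands and 1 of 4 receptors were higher. SLIT2 (chromosome 4, 20251905 to 20620561), the midline repellent, stood at 16.4 and 15.4 CPM in the P5CS IP, against 3.46 and 5.16 CPM in the input (log2 fold change 1.88, SE 0.233). SLIT3 had 100.7 and 99.5 CPM in the P5CS IP and 50.7 and 58.1 CPM in the input (0.88, SE 0.1005). ROBO1 (chromosome 3, 78597239 to 79767998), the main SLIT receptor here by level, had 229.5 and 219.0 CPM in the P5CS IP and 120.8 and 121.7 CPM in the input (0.89, SE 0.0800). The groups of these 3 called genes did not overlap, with both P5CS IP values above both inputs. That order held in 46 of the 60 tested guidance genes and in 37.7% of all tested genes.

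The other ROBO receptors did not pass. ROBO3, which dampens SLIT responses before axons cross the midline, had 16.4 and 11.9 CPM in the P5CS IP and 15.5 and 15.3 CPM in the input (-0.12, SE 0.189). Its inputs lie between its P5CS IP values, at a depth of 409 to 640 counts at which other guidance genes were called. ROBO2 had 0.51 (SE 0.280), and the endothelial ROBO4 had -0.04 (SE 0.535). SLIT1 had 26 and 13 counts in the P5CS IP and 6 and 0 in the input, and its 2.71 (SE 1.38) did not pass.

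Of 4 netrins, 2 were higher, of which NTN3 passed the count filter through the P5CS IP libraries alone. NTN4 (chromosome 12, 95657807 to 95791155), a netrin of basement membranes, stood at 47.3 and 59.8 CPM in the P5CS IP, against 13.0 and 14.5 CPM in the input. Its log2 fold change was 1.96 (SE 0.148, adjusted p = 1.20e-06, edgeR quasi-likelihood test). NTN3 had 24 and 44 counts in the P5CS IP and 0 and 2 in the input, a P5CS IP to input ratio of 37.2 with a 95% counting interval of 6.25 to 1513 on halved counts of 34 and 1. The adjusted p of NTN3 was 0.00676 and became 0.133 without the second P5CS IP library (edgeR).

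NTN1, the founding netrin, had 49 and 66 counts in the P5CS IP and 2 and 34 in the input. The inputs of NTN1 differ widely, and its 1.87 (SE 0.936) did not pass. Without the second input it had 4.83 (adjusted p = 0.00176, edgeR), and without the first input 0.97 (adjusted p = 0.311). NTN5 had 8 and 24 counts in the P5CS IP and 2 and 22 in the input (0.63, SE 1.20). All 3 UNC5 receptors, which mediate repulsion by netrin, had 4 to 46 counts per library and log2 fold changes of 0.99 (UNC5B), 0.50 (UNC5A) and -0.15 (UNC5C), with SEs of 0.749 to 1.11. None of the 3 passed the test, and the differences measured in them were below their SEs.

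The gene models of these families are long, and in this comparison long genes were more often higher. The median model length was 6048 nt for the tested guidance genes and 3425 nt for all tested genes, and 52 of 60 guidance genes were longer than 3425 nt. Over all 17304 tested genes the Spearman correlation between log2 fold change and length was 0.27, and in 5 equal bins of genes from short to long the share called higher was 9.30, 16.6, 25.7, 33.2 and 42.4%. Among the 60 guidance genes themselves the correlation was -0.09. These are correlations across genes measured in the same 4 libraries, so the points are not independent. Of the 29 guidance genes in the longest bin 16 were higher (42.4% of all genes there), and of the 12 in the next 7 (33.2%). Of the 13 in the middle bin 9 were higher (25.7%), of the 4 in the second shortest 1 (16.6%), and of the 2 in the shortest 1 (9.30%). Of these higher genes, EPHB6 (middle bin) and NTN3 (second shortest bin) passed the count filter through the P5CS IP libraries alone.

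**Figure D3:**
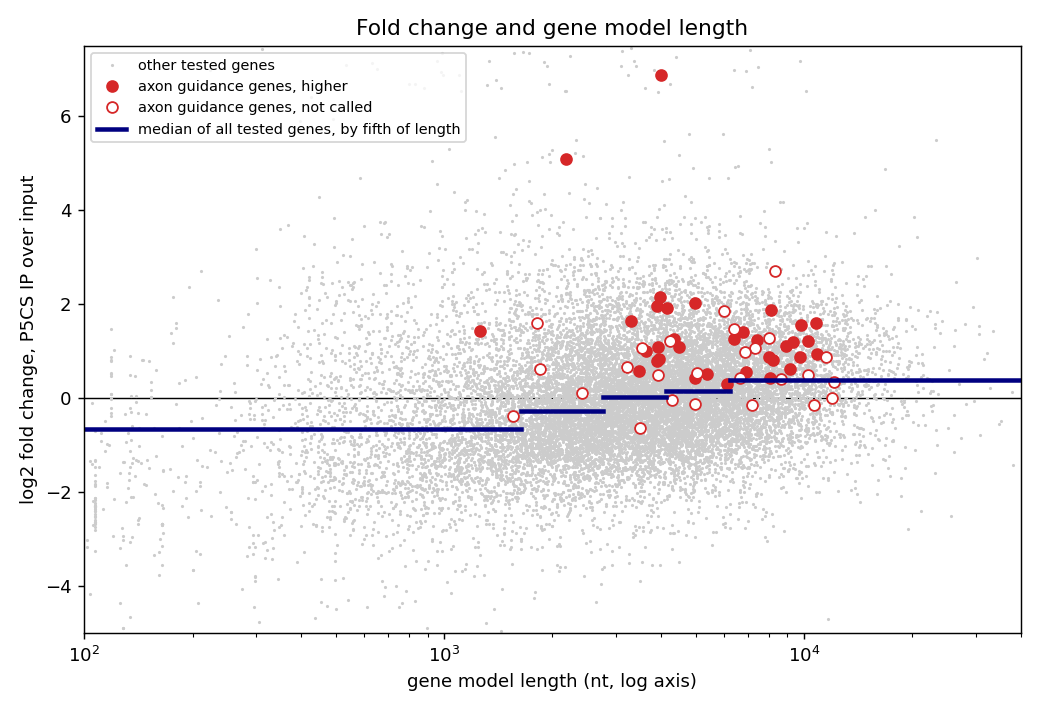
Log2 fold change of P5CS IP over input (y axis) against gene model length (x axis, nucleotides, log scale) for guidance genes (red, filled if higher) over other tested genes (grey); bars give the median of all tested genes in each of 5 length bins, and the range shown leaves out some extreme grey points. The medians step up from -0.65 in the shortest bin to 0.38 in the longest, and many red points lie above the bar at their length.

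With the length trend taken out of the fit, 28 guidance genes were higher and 0 were lower, against 23.5% and 25.8% of all tested genes, and the median log2 fold change of the guidance genes became 0.71. Of the 34 calls 27 were kept, and EFNA3 was added (1.91). The calls that ended were those of SEMA3A (0.42), SEMA3C (0.24), SEMA3E (0.05), SEMA4F (0.03), SEMA6A (0.20), EFNA5 (0.29) and PLXND1 (0.23). In 6 genes the call held while the value fell by more than 1.5 times: SLIT3 (0.43), ROBO1 (0.51), PLXNA3 (0.46), PLXNA1 (0.76), NRP2 (0.76) and SEMA4D (0.70). SEMA6C (2.05), EFNB2 (1.84), NTN4 (1.87), SEMA6B (1.80), EFNA4 (1.92), EFNB1 (1.62), SLIT2 (1.499) and the added EFNA3 had the largest values among the genes called in that fit with counts in every library.

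The base composition at the start of each RNA was also described. RefSeq windows of 300 bases (GRCh38.p14, 250 before and 50 after the annotated start) were matched for 54 of the 63 genes. Across the 51 tested ones the Spearman correlation between log2 fold change and the GC content of the 50 transcribed bases was 0.09, and across 11704 tested genes it was 0.12. The median GC content was 70.0% in 28 called guidance genes and 62.0% in 23 that did not pass. It was 64% over the 51 guidance genes and 68% over the 11704 tested genes. The 2 windows below are those of the called genes with the lowest and the highest GC content in the transcribed part, 32.0% in ROBO1 (chr3:79767949-79768248, minus strand) and 86.0% in PLXNA3 (chrX:154458031-154458330, plus strand). Capitals mark the 50 transcribed bases, and which start is used in these cells was not measured.
ROBO1: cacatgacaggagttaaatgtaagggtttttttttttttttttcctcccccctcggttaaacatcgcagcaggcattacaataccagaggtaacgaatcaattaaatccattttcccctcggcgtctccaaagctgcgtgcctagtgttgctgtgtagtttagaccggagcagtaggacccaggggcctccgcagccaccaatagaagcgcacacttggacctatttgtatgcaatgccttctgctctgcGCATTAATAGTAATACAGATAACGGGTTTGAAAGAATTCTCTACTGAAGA
PLXNA3: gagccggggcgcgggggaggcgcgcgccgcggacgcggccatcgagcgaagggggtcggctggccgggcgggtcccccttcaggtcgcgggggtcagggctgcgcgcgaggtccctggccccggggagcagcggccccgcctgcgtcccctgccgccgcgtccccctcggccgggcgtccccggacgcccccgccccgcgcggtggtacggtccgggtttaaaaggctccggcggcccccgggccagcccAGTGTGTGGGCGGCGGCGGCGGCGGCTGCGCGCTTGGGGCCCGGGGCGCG
ROBO1 and PLXNA3 had log2 fold changes of 0.89 and 0.95 with SEs of 0.0800 and 0.107. Both were picked from genes already called higher, and a part of base composition in the results was not tested.

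Some members share their span with other genes, and no source used here states the strand setting of the counting, so reads in shared stretches cannot be assigned to one partner with certainty. The antisense RNA EPHA2-AS1 had 20 and 82 counts in the P5CS IP and 15 and 16 in the input, far below the counts of EPHA2. Larger partners were SLC12A9 beside EPHB4 (4116 and 3085 counts in the P5CS IP, 2437 and 2737 in the input), LAGE3 beside PLXNA3 (1238 and 1114 in the P5CS IP, 2896 and 3284 in the input), MRPL43 beside SEMA4G (764 and 436 in the P5CS IP, 1783 and 1664 in the input) and SECISBP2 beside SEMA4D (1869 and 1864 in the P5CS IP, 1074 and 1157 in the input). LAGE3 and MRPL43 thus had the larger counts in the input, the opposite of PLXNA3 and SEMA4G. SLC12A9 and SECISBP2 had the larger counts in the P5CS IP, as EPHB4 and SEMA4D did, and SECISBP2 had more counts than SEMA4D in every library. The ribosomal protein pseudogene RPL6P10 within the span of EPHA5 had 18 and 40 counts in the P5CS IP and 104 and 96 in the input, where EPHA5 had 336 and 226 in the P5CS IP and 112 and 94 in the input. How far shared reads enter these values was not tested.

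In the authors' deposited table, 31 of the 63 genes carry the mark of enrichment, against 19% of all 21372 genes. The mark equals an unadjusted p under 0.05 with a fold above 1.5, a rule that matched it in all 21372 genes. Of the 31, 29 were also called higher here. Among the 29, SEMA6A and SEMA7A had adjusted p of 0.0545 and 0.0542 in the authors' deposited table, above the 0.05 used here. EFNA3 was marked in the authors' deposited table with an adjusted p of 0.0884 there. SEMA5B, with 4 and 18 counts in the P5CS IP and 0 in both inputs, was marked and not tested here. The 5 genes called here without the mark were SEMA3C, SEMA3E, SEMA4F, PLXND1 and EFNA5, all below the 1.5-fold limit of the authors' deposited table.

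Genes that act with or downstream of the receptors moved in both directions. A list of 89 co-receptors, adaptors and effectors of axon guidance outside the 9 families was examined, of which 84 had a row and 79 were tested. In this list 36 genes were higher and 12 lower in the P5CS IP, with a median log2 fold change of 0.38 (all tested genes 25.4% higher and 25.6% lower, median -0.01). The roles below were assigned after the values had been seen, and no test was made of the difference between roles. Small GTPases stood lowest, with 6 of 9 lower, 0 higher (0 also at an unadjusted p under 0.05 in edgeR and 0 by DESeq2) and a median of -1.18. The proteins that regulate these GTPases, exchange factors and GTPase-activating proteins, had 10 of 13 tested genes higher and 0 lower (0 also at an unadjusted p under 0.05 and 0 by DESeq2), with a median of 0.85.

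**Figure D4:**
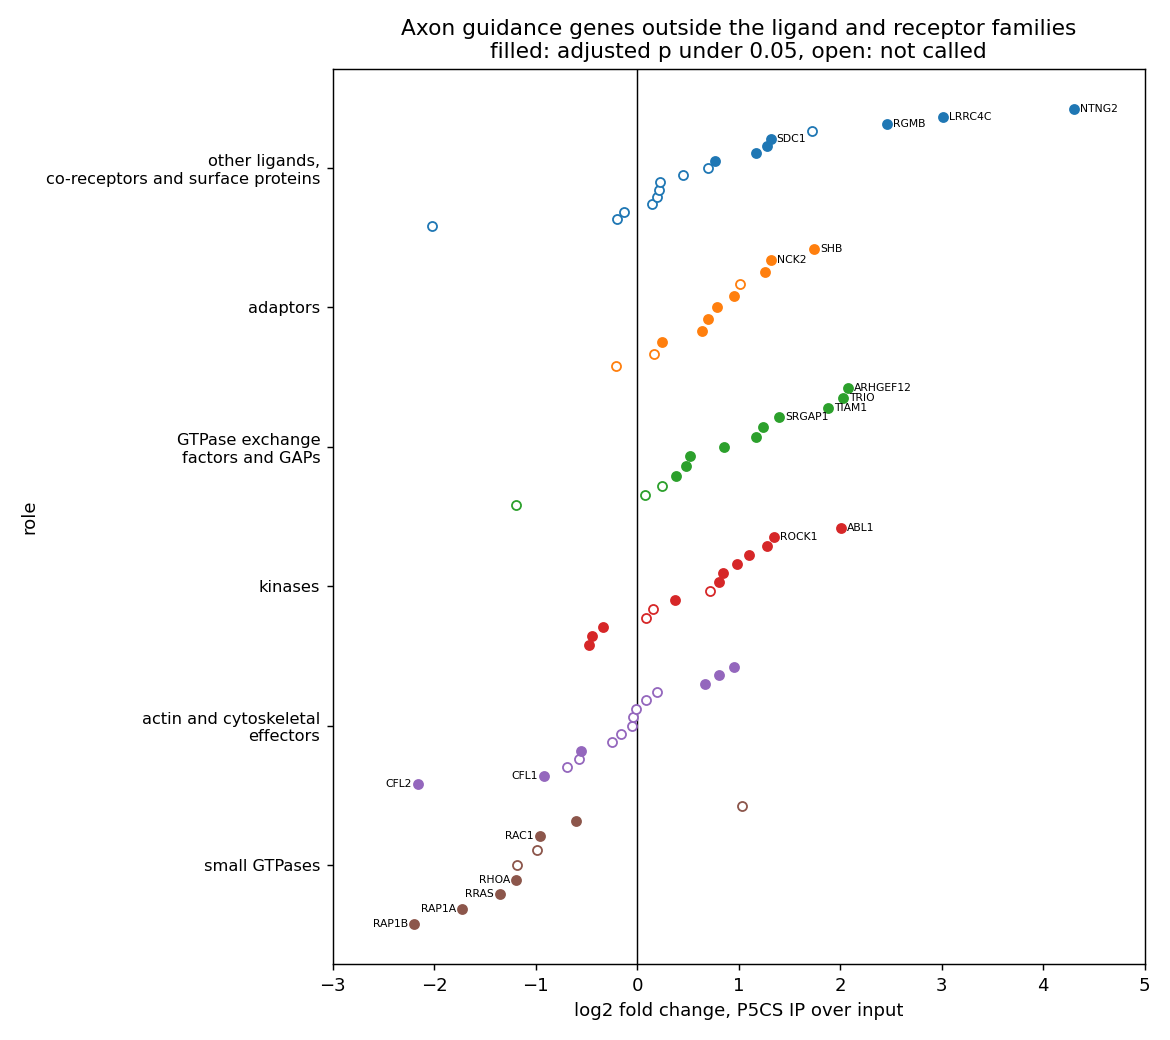
Log2 fold change of P5CS IP over input (x axis) for 79 tested axon guidance genes outside the ligand and receptor families, in rows by role (y axis); filled points passed adjusted p under 0.05 and the points far from 0 are named. The filled small GTPases all lie left of 0 and the filled exchange factors and GTPase-activating proteins all lie right of 0.

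The exchange factor genes at the top of the list were abundant. ARHGEF12, an exchange factor that binds plexin-B, stood at 935.2 and 1020.4 CPM in the P5CS IP, against 222.6 and 240.7 CPM in the input (log2 fold change 2.08, SE 0.0816). TRIO, an exchange factor downstream of netrin receptors, had 1112 and 1286 CPM in the P5CS IP and 286.0 and 303.2 CPM in the input (2.02, SE 0.0875). RGMB, a neogenin ligand, had 211.7 and 214.9 CPM in the P5CS IP and 39.9 and 37.4 CPM in the input (2.46, SE 0.0895). In all 3 genes the groups lay more than 3-fold apart in every library. LRRC4C, a netrin-G ligand, had 3.14 and 2.505 CPM in the P5CS IP and 0.213 and 0.477 CPM in the input (3.01, SE 0.593).

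NTNG2, a lipid-anchored netrin relative, had 12 and 27 counts in the P5CS IP and 0 and 2 in the input. The ratio of NTNG2 was 21.4, with a 95% counting interval of 3.50 to 907.6 on halved counts of 20 and 1, and its adjusted p was 0.0283 (edgeR). NTNG2 passed the count filter through the P5CS IP libraries alone, the only gene of the 79 to do so, so it had to be higher there to be tested, and it is 1 of the 36 higher genes. The call was lost without a count filter (adjusted p = 0.0698, edgeR), with the length trend removed together with a replicate block (0.0578), and without the first P5CS IP (0.0806), the first input (0.203) or the second input (0.0592). ABL1, a kinase that relays ROBO signals, and the adaptor genes NCK2 and SHB were higher too, at 2.01 (SE 0.0784), 1.32 (SE 0.157) and 1.74 (SE 0.105). Among the kinases 8 of 14 were higher and 3 lower, namely PAK1 (-0.48), PAK2 (-0.45) and PAK4 (-0.34), effectors of Rac and Cdc42. The call of PAK1 ended without the first input (-0.47, adjusted p = 0.0521, edgeR) and that of PAK4 without the second input (-0.30, adjusted p = 0.0541).

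At the other end stood the GTPases and cofilins. RAP1B had 10.2 and 11.3 CPM in the P5CS IP, against 43.3 and 55.4 CPM in the input (-2.20, SE 0.156). RAP1A had 1.83 and 2.91 CPM in the P5CS IP and 8.57 and 7.11 CPM in the input (-1.73, SE 0.311). CFL2, a cofilin that severs actin filaments, had 4.29 and 3.73 CPM in the P5CS IP and 17.1 and 18.8 CPM in the input (-2.16, SE 0.200). All 3 were lower in both P5CS IP libraries than in either input.

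RRAS, the Ras protein on which plexins act, had 20.7 and 22.1 CPM in the P5CS IP and 56.9 and 52.3 CPM in the input (-1.35, SE 0.118). RHOA had 18.9 and 17.1 CPM in the P5CS IP and 44.9 and 37.5 CPM in the input (-1.19, SE 0.140), and RAC1 had 56.4 and 57.6 CPM in the P5CS IP and 111.4 and 110.9 CPM in the input (-0.96, SE 0.0897). The model lengths of the tested small GTPases had a median of 2466 nt and those of the exchange factors and GTPase-activating proteins 7578 nt. With the length trend removed RAC3 (-0.60) was no longer called. The calls of ROCK2 (0.84), CRK (0.24) and ABL2 (0.37), all higher, also ended in that fit, and ABL2 turned to -0.16. The list then had 32 genes higher and 14 lower. With single libraries left out, the calls of CRK, NGEF (0.52), FARP1 (0.38), CRMP1 (0.67) and NCK1 (0.70) also ended in at least 1 fit. NGEF and FARP1 are among the higher exchange factors. With total-count scaling 5 of the 12 lower genes lost their calls, RAC3, EVL, PAK1, PAK2 and PAK4.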

How the data were processed

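RIP-seq of 2 P5CS IP and 2 input libraries was analysed from 1 deposited table. Per the submitters' processing notes the tools were STAR 2.7.10a, fastp 0.23.2, DESeq2 and featureCounts, on hg38. No source used here states settings, annotation or strand. The series' design text speaks of another protocol with an IgG control, whereas the sample titles name P5CS and input. The authors deposited whole-number counts per gene and FPKM values, which per the file headers are scaled to gene length and library size. The deposited columns also hold a normalised mean (a signal), a log2 fold change, a test score, and p-values, per the file headers. Columns were matched to samples by replicate number and the word Input. All carry the word Cyto, which no label explains.

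Of 21373 rows, 1 repeated a symbol with identical values and was dropped. Replicates differed beyond sampling noise (chi-square per degree of freedom 18.5 in the P5CS IP and 17.9 in the input). The count test was edgeR 4.0.16 under R 4.3.3 (TMM, filterByExpr, glmQLFit, glmQLFTest, no replicate term, 2 residual degrees of freedom). The filter, about 10 counts (0.264 CPM) in 2 libraries, kept 17304 genes. SEs are the log2 fold change over the root of the F statistic. P-values were adjusted by Benjamini-Hochberg over all tested genes. The common biological coefficient of variation was 0.201. Alternatives used DESeq2 1.42.0, other scalings and filters, halved counts, a replicate term, a loess of log2 fold change on log2 gene model length (span 0.5, as offsets), and each library left out. Scripts were tested on simulated data. Intervals cover counting error only, and the floor covers that of the input alone.

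Gene models came from the quotient of deposited counts and FPKM, and coordinates (1-based) from a RefSeq table of GRCh38.p14, in which all 63 genes matched by identifier. The genes and lists were chosen with earlier results of these data known. Values per library are given, in each family group, for up to 4 called genes with the highest and 3 with the lowest log2 fold change and the 2 with the highest input FPKM, and in the list of 89 for the 5 highest and 5 lowest called genes. RAC1, ABL1, NCK2, SHB, PAK1, PAK2, PAK4, RAC3, EVL and the remaining family members named with values fall outside that choice or were added after their values were seen. The same holds for PAK3, ABL2, ROCK2, CRK, NGEF, FARP1, CRMP1 and NCK1.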

Additional observations from a re-analysis of the deposited data

How the results depend on the processing

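The labels do not say what a replicate number shares, and the deviations of same-numbered libraries had a correlation of 0.000153 over 17304 genes, so the numbers were not taken as pairs. With the replicate number as a block, 35 guidance genes were called higher, 0 were called lower and the median was 1.01. Over all 13 alternatives the guidance genes called higher ranged from 28 to 38 and those called lower stayed at 0, and 23 of the 34 calls held in every one. The median log2 fold change of 0.97 became 0.71 with the length trend removed, 0.72 with that and the replicate block, 1.23 with total-count scaling (which moved the median of all genes to 0.25 and their split to 5604 higher and 3223 lower), and 0.87 to 1.04 with 1 library left out. In the list of 89, 7 genes in place of 12 were lower with total-count scaling. When 1 library was left out, 1 group held a single library and was assumed to vary like the other; 25 of 34 calls held in all 4 such fits. Among the guidance genes, signs turned only in those without a call. With total-count scaling they turned in ROBO3 (0.14), ROBO4 (0.22), UNC5C (0.12) and SEMA3D (0.12). With the length trend removed they turned in EPHB2 (-0.17, and -0.18 with the block), EFNA1 (0.0158 and 0.0493) and SEMA5A (-0.50 and -0.56). The replicate block alone turned SEMA5A (-0.0392). In the list of 89 the called ABL2 (0.37) turned to -0.16 with the length trend removed, with or without the block. With 1 library left out the range spanned 0 in ROBO3 (-0.37 to 0.12), ROBO4 (-0.81 to 0.48), UNC5A (-0.34 to 2.29), UNC5B (-0.46 to 2.14), UNC5C (-0.62 to 0.57), EFNA2 (-0.19 to 0.52), NTN5 (-0.43 to 3.01), SEMA3D (-1.09 to 0.44), SEMA4A (-1.17 to 0.23) and SEMA5A (-0.70 to 0.51). The cause of these shifts was not tested. The median SE was 0.66 in the guidance genes without a call and 0.15 in the called ones; whether depth accounts for the missing calls was not tested.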
